A study of Mus musculus with 40 samples.

Results

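The Myc, Max and Mxd network is a family of DNA-binding proteins of the basic helix-loop-helix leucine zipper class. The 10 members followed here were Myc, Mycn, Max, Mxd1, Mxd3, Mxd4, Mxi1, Mnt, Mga and Mlx, chosen by gene name from the 24732 genes of each library's table. All 10 were found, and their transcript levels are given as TPM, a read count corrected for gene length and scaled to the same total in every library, in 28 RNA-seq libraries from a study of the transcription factor Ikaros, the product of Ikzf1.

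The cells were mouse follicular B cells sorted by flow cytometry. All mice were C57BL/6 and carried the MD4 transgene, whose receptor recognises hen egg lysozyme (HEL), so nearly every B cell had 1 specificity. The Cre of Cd23-cre, which removes loxP-flanked parts of Ikzf1, is switched on late as B cells mature. In the names of alleles, fl is a loxP-flanked allele, + the normal allele and - a null allele. Naive cells came straight from the mouse: 2 libraries were Cd23-cre Ikzf1(fl/-), and the others kept an intact allele, 3 with Cre (Cd23-cre Ikzf1(fl/+)) and 2 without it (Ikzf1(fl/+)). HEL-exposed cells were sorted 1 day after intravenous HEL from Cd23-cre Ikzf1(fl/fl) mice or from Ikzf1(fl/fl) mice without Cre (5 libraries each), so that in this pair Cre and loss of Ikaros cannot be told apart. Anergic cells (3 libraries, with genotypes Ikzf1(fl/fl), Ikzf1(fl/+) and Cd23-cre Ikzf1(fl/+)) met the antigen throughout life, since their donors bear a second transgene, ML5, that makes soluble HEL. CpG-stimulated cells were cultured for 1 day with CpG, a DNA ligand of Tlr9, and all carried Cd23-cre, 4 libraries with Ikzf1(fl/-) and 4 with Ikzf1(fl/+). The labels give no ages, and they do not say whether replicates were separate animals. The p-values therefore reflect only how much these samples vary, and part of that variation may be technical.

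Max is the hub of the network. It pairs with Myc or Mycn to activate genes through the E-box, the sequence CACGTG, and with the Mxd proteins, Mxi1, Mnt or Mga to repress the same kind of site, the Mxd proteins and Mnt by way of Sin3 and histone deacetylases. Mga is also a subunit of a Polycomb complex, PRC1.6, and Mlx pairs with the glucose-sensing Mondo proteins, whose best known targets are Txnip and Arrdc4. In B cells, Myc is induced by activation and drives cell growth, ribosome biogenesis and division, while Mxd proteins are linked to quiescence and differentiation.

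Genes of the network can themselves carry the sequence that its proteins bind. The promoter windows of RefSeq (build GRCm38.p6, 300 bases from 250 before to 50 after a gene's start) held CACGTG, which reads the same on both strands, in 2349 of 32851 promoters (7.15%), which belong to 2187 of 27025 genes (8.09%). Of the 9 members with an entry, all but Myc, 4 had it (4 of their 11 promoters): Max, Mlx, Mnt and Mxd4. These 4 stretches are shown because they are the members' promoters that hold the site, among them those of the hub Max and of the repressor Mxd4. Each is written from 5′ to 3′ on the gene's own strand, and the capitals mark CACGTG.
Mxd4, chr5:34187892-34187960, minus strand: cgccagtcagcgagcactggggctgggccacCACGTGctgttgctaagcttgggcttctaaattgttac
Mnt, chr11:74830769-74830838, plus strand: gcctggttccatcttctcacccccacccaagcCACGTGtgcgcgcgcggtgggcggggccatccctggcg
Mlx, chr11:101087218-101087287, plus strand: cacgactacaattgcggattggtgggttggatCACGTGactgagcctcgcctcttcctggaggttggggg
Max, chr12:76962237-76962283, minus strand: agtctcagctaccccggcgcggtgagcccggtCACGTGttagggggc
The first base of the motif lies 219 bases before the annotated start in Mxd4, 123 in Mnt, 40 in Mlx and 3 in Max. All 4 stretches lie in the promoter, and the match is a description of sequence, not a measured binding site. The files use another build, mm9, and no coordinate was carried between builds.

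Depth was 12126702 to 25424364 reads per library, recovered from the steps in the TPM values. Cells with Cre and no normal allele are called cells without Ikaros, by genotype. The targeted gene Ikzf1 was at 31.7 to 79.3 TPM in them and at 120.2 to 319 TPM in all others. The summed TPM of 5 B cell markers was 10724 to 14849 in the unstimulated and HEL-exposed libraries and 1857 to 3348 after CpG. The titles number the libraries, and the first 2 digits of that number, 36, 49 or 57, are used below as the library series. The naive fl/- libraries and 2 of the naive Cre fl/+ libraries are of series 36, all CpG libraries are of series 49, and the rest are of series 57. Neutrophil markers (4 genes) summed to 20.4 to 83.4 TPM in the 4 libraries of series 36 and to 0.652 TPM or less in series 57. In bulk samples such as these, fewer cells that express a gene and less RNA per cell cannot be told apart.

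Max, the common partner, was at 105.5 to 167 TPM in the 20 naive, anergic and HEL-exposed libraries and at 203 to 295 TPM in the 8 CpG libraries. Myc was at 33.4 to 48.7 TPM in naive cells of all genotypes, at 77.8 to 88.5 TPM in anergic cells and at 185 to 326 TPM after CpG, so that the 3 states did not overlap. The HEL-exposed libraries spanned 21.9 to 62.5 TPM and reached both below and above the naive ones. Mycn, the close relative of Myc that is expressed in early progenitors, was all but absent: 16 of 28 libraries had 0 reads and the highest had 5 reads (0.207 TPM). A count of 0 allows up to 3 reads, which is 0.0982 to 0.178 TPM in those libraries. Mycn passed the filter on low values in no comparison, and no fold change is given for it.

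Among the repressors, Mxd4 was the most abundant in every library outside the CpG groups and had the widest range, from 9.25 to 454 TPM. It was at 82.9 to 146 TPM in naive cells, 140 to 251 TPM in anergic cells, 258 to 321 TPM after HEL in the controls, 312 to 454 TPM after HEL without Ikaros, and 9.25 to 78.0 TPM after CpG. The anergic and HEL control ranges touch neither each other nor CpG, while the lowest anergic library lay below the highest naive one. Mnt, which is expressed in both resting and dividing cells in most tissues, was at 22.6 to 95.7 TPM. Mxd1 (2.33 to 11.9 TPM), Mxi1 (3.07 to 6.90 TPM) and Mxd3 (0.716 to 27.2 TPM) were low, and Mxd3, the family member known to be expressed in dividing cells, was the only 1 of these 3 that was highest after CpG. Mga was at 2.85 to 17.4 TPM and Mlx at 35.9 to 54.4 TPM, the narrowest range of the abundant members. The rows of Mlx and Mxd3 are marked in the files as overlapping another gene (Psmc3ip and Prelid1 in RefSeq), so some of their reads may belong to these neighbours.

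Levels of Mga and Mnt also moved with the library series. In the naive Cre fl/+ group, Mga was at 3.88 and 4.09 TPM in the libraries of series 36 and at 12.8 TPM in the library of series 57. Mnt was at 41.9 and 48.4 TPM in series 36 and at 76.8 TPM in series 57, with the same genotype and preparation. Myc did not show this split, with 46.9 and 46.1 TPM in series 36 and 48.2 TPM in series 57. For this reason naive, HEL and anergic cells were compared within series 57 only, and the part of the series in the CpG comparisons with naive cells was not tested.

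**Figure D1:**
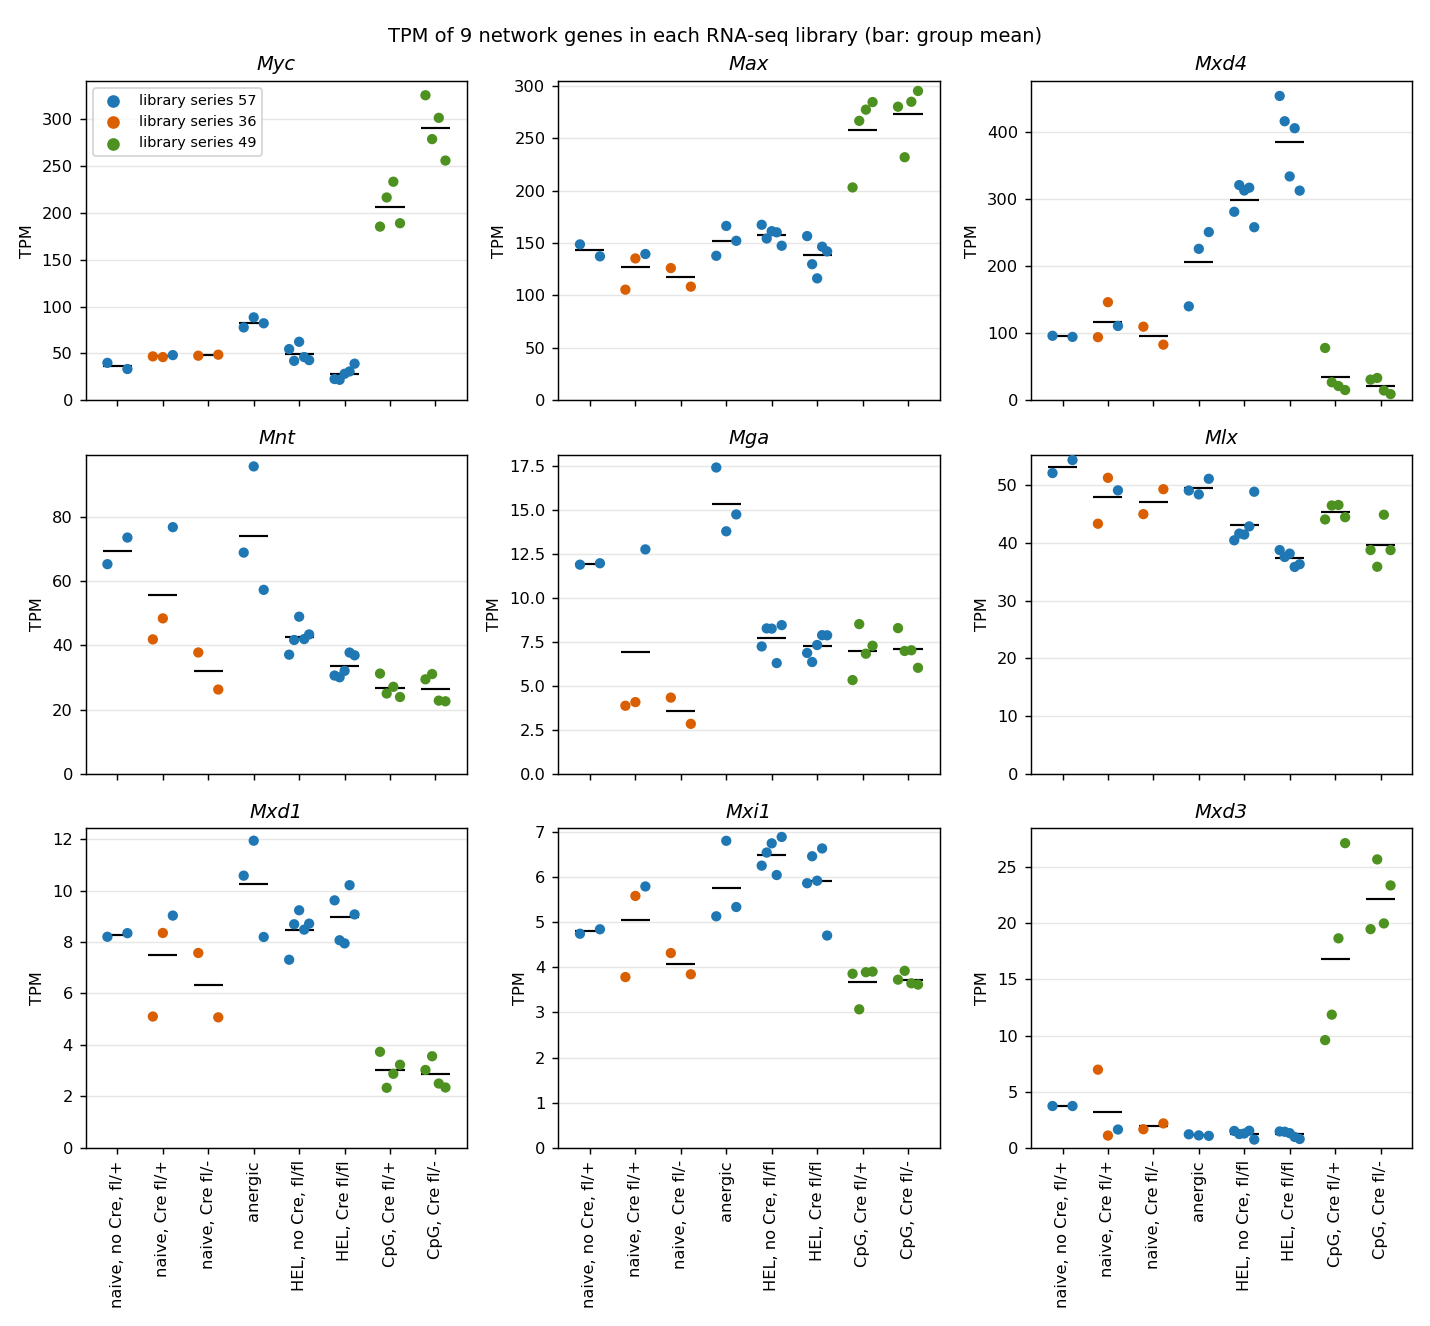
TPM of 9 members (vertical axes, linear from 0) in each of the 28 libraries, by group along the horizontal axis, with points coloured by library series and a bar at the group mean. Myc is higher in anergic than in naive libraries and highest in CpG libraries, Mxd4 is highest after HEL and lowest after CpG, and the orange points of series 36 lie low for Mga and Mnt.

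The first comparison asked how the network differs in HEL-exposed cells that lack Ikaros. Myc fell and Mxd4 rose, so that the activator and the main repressor changed in opposite directions. Of the 9 members tested, 1 was higher and 3 were lower (adjusted p under 0.05, limma with Benjamini-Hochberg adjustment over all 10258 genes tested). Of all genes tested, 36.9% were called, 12.9% higher and 24.1% lower, so a count of 4 in 9 is near the background and the members are described one by one. With median-ratio scaling, which removes the median shift of all genes, 1820 genes were higher and 1646 lower, and 1 member was higher and 2 lower.

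Myc was at 54.7, 42.1, 62.5, 46.2 and 42.9 TPM in the controls and at 22.7, 21.9, 28.3, 30.8 and 39.1 TPM without Ikaros. The groups did not overlap, and the mean was 28.6 ± 6.98 TPM (SD, n = 5) against 49.7 ± 8.72 TPM (SD, n = 5). The difference in log2(TPM + 1) was -0.79 ± 0.15 (standard error, adjusted p = 0.00116), and it ran from -0.91 to -0.71 over 15 other settings, past the threshold in each. Each group holds 3 female and 2 male libraries by Y-linked transcripts, and with a term for sex the difference was -0.79 (adjusted p = 0.00129). Within male libraries Myc was at 46.2 and 42.9 TPM in the controls and 30.8 and 39.1 TPM without Ikaros, and within female libraries at 42.1 to 62.5 TPM and 21.9 to 28.3 TPM.

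Mxd4 was at 281, 321, 313, 317 and 258 TPM in the controls and at 454, 416, 334, 405 and 312 TPM without Ikaros. The groups overlapped through the lowest library without Ikaros. Means were 298 ± 27.3 and 384 ± 59.1 TPM (SD, n = 5 each), with a log2 difference of 0.36 ± 0.10 (adjusted p = 0.0137).

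Mnt was at 37.1 to 48.9 TPM in the controls (median 42.0) and at 30.1 to 37.8 TPM without Ikaros (median 32.1), and it fell by 0.34 ± 0.08 on the log2 scale (adjusted p = 0.0067). The ranges overlapped only between 37.1 and 37.8 TPM. Mlx was at 40.5 to 48.9 TPM in the controls and at 35.9 to 38.8 TPM without Ikaros, without overlap. Its log2 difference was -0.20 ± 0.06 (adjusted p = 0.0193), but -0.12 (adjusted p = 0.158) with median-ratio scaling and -0.12 (adjusted p = 0.168) with voom on recovered reads, so its call rests on the scaling. Max missed the threshold (-0.20 ± 0.07, adjusted p = 0.0514), and Mxd1, Mxd3, Mxi1 and Mga differed by 0.12 or less in size with adjusted p of 0.288 or more.

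Markers of other cells moved with this comparison. The 5 myeloid markers summed to 28.3 to 40.6 TPM without Ikaros and 9.63 to 15.3 TPM in the controls, the 4 dendritic cell markers to 15.8 to 23.4 TPM and 4.11 to 7.26 TPM, the 4 plasma cell markers to 123 to 158 TPM and 72.2 to 94.3 TPM, and the 3 marginal zone B cell markers to 47.6 to 73.8 TPM and 114 to 154 TPM. Of the markers that could be tested, 2 of 4 myeloid, 4 of 4 dendritic and 2 of 2 plasma cell genes were higher, and of 3 marginal zone genes 2 were lower and 1 higher. These counts depend on the filter on low TPM. Siglech, Cd209a and Csf1r passed it mainly through the group without Ikaros, with means of 0.0153, 0.290 and 0.430 TPM in the controls. The plasma cell gene Igj was not tested and went the other way, with means of 1.11 TPM in the controls and 0.0727 TPM without Ikaros. None of these markers was at 0 in all libraries of either group. Their part in the differences of the members was not tested.

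The second comparison was the loss of Ikaros after CpG. Here Myc was the 1 member that changed, and it rose. Of 9 members tested, 1 was higher and 0 were lower, where 14.9% of 10386 genes were called, 9.14% higher and 5.80% lower. Myc was at 185, 217, 233 and 189 TPM in the libraries with 1 intact allele and at 326, 279, 301 and 256 TPM in those without Ikaros. The groups did not overlap, the means were 206 ± 22.9 and 290 ± 29.9 TPM (SD, n = 4 each), and the log2 difference was 0.49 ± 0.10 (adjusted p = 0.0129). Both groups carry Cre here. With a term for the first and second block of library numbers, which hold 2 libraries per genotype each, the difference was 0.49 (adjusted p = 0.0108), and over 13 settings it ran from 0.44 to 0.56, past the threshold in each.

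Mxd4 after CpG was low and uneven, at 78.0, 26.9, 21.3 and 15.3 TPM with 1 intact Ikzf1 allele and 30.8, 33.3, 14.6 and 9.25 TPM without. The difference of -0.55 ± 0.53 did not pass (adjusted p = 0.527). The spread followed the blocks of library numbers rather than the genotype: the 4 libraries of the first block were at 26.9 to 78.0 TPM and the 4 of the second at 9.25 to 21.3 TPM. Mxd3 was at 9.59, 11.9, 18.7 and 27.2 TPM with 1 intact allele and 19.5 to 25.7 TPM without, with a difference of 0.47 ± 0.28 (adjusted p = 0.284).

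The fl/+ library with the highest Mxd4 (78.0 TPM) had the lowest Mxd3 (9.59 TPM), the lowest Max (203 TPM) and the lowest sum of 18 proliferation genes (3993 TPM) among the 8. It also had the lowest Mki67, a protein of dividing cells, at 6.76 TPM against 17.9 to 25.4 TPM in the other 7. The proliferation sums were 3993 to 5732 TPM in fl/+ and 5858 to 6363 TPM in fl/- libraries, so they were higher without Ikaros, as Myc was. Within a genotype they did not follow Myc: the highest sums, 5732 and 6363 TPM, were in libraries with 189 and 256 TPM of Myc. The highest Myc, 233 TPM in fl/+ and 326 TPM in fl/-, came with sums of 5282 and 5862 TPM. The part of proliferation in the difference of Myc was not tested. Neutrophil markers summed to 121.8 TPM in a fl/+ library with 189 TPM of Myc and to 18.2 TPM or less in the other 7. These sums also followed the blocks of library numbers, at 0 to 0.206 TPM in the first block and 6.80 to 121.8 TPM in the second. The 4 dendritic cell markers summed to 29.1 to 38.2 TPM without Ikaros and 12 to 27.3 TPM with 1 intact allele. Flt3 made up nearly all of these sums, with means of 32.9 and 18.4 TPM. Of 5 B cell markers 3 were lower without Ikaros. What the changes of these markers contribute was not tested. Max, Mxd1, Mxi1, Mnt, Mga and Mlx did not pass, with differences of 0.20 or less in size and adjusted p of 0.129 or more.

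Myc thus had effects of opposite sign in the HEL and CpG comparisons, and this difference was itself tested. The effect with CpG minus the effect with HEL was 1.29 ± 0.21 for Myc (adjusted p = 3.05e-04, limma interaction contrast over 18 libraries). Over 22 other settings it ran from 1.2 to 1.4, with the highest adjusted p at 0.00107. Myc was the 1 of 9 members called, where 22.4% of 11050 genes were called, 15.2% with a higher and 7.19% with a lower effect (1351 and 1068 genes with median-ratio scaling). The 2 effects differ in more than the stimulus, since the HEL pair is fl/fl with and without Cre, sorted straight from the mouse, and the CpG pair is fl/- and fl/+ after culture. Mxd4 (-0.91 ± 0.52, adjusted p = 0.226) and Mxd3 (0.51 ± 0.30, adjusted p = 0.234) did not pass, but Mxd3 did without the fl/+ library that had the highest Mxd3 (0.77, adjusted p = 0.0338).

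In naive cells no member was called for the loss of Ikaros by limma, with 2 libraries against 2 of series 36. At an unadjusted p under 0.05, 1 of 9 passed (Mnt), and voom called 0. Of all 10053 genes 2 were called (0.0199%). Each group holds 1 male and 1 female library, and with a term for sex 240 genes and 0 members were called. In data of this size simulated with a dispersion of 0.02, 74.6% of genes changed 2-fold were recovered and 13.4% of those changed 1.5-fold. Small differences were thus not detectable. In the real libraries larger ones also went uncalled, such as Flt3 (1.57 ± 0.32, adjusted p = 0.123). Ikzf1 itself did not pass here (-1.05, adjusted p = 0.0859). The lack of calls therefore does not show that the members were unchanged. Myc was at 47.6 and 48.7 TPM in fl/- cells and at 46.9 and 46.1 TPM in fl/+ cells, a log2 difference of 0.05 ± 0.17 (adjusted p = 0.935). Relative to the median of all genes, which was -0.12, Myc was at 0.17 ± 0.17 (median-ratio scaling, adjusted p = 0.814). Mnt had the largest difference in size, at 37.8 and 26.3 TPM against 41.9 and 48.4 TPM, with -0.50 ± 0.22 (adjusted p = 0.558).

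**Figure D2:**
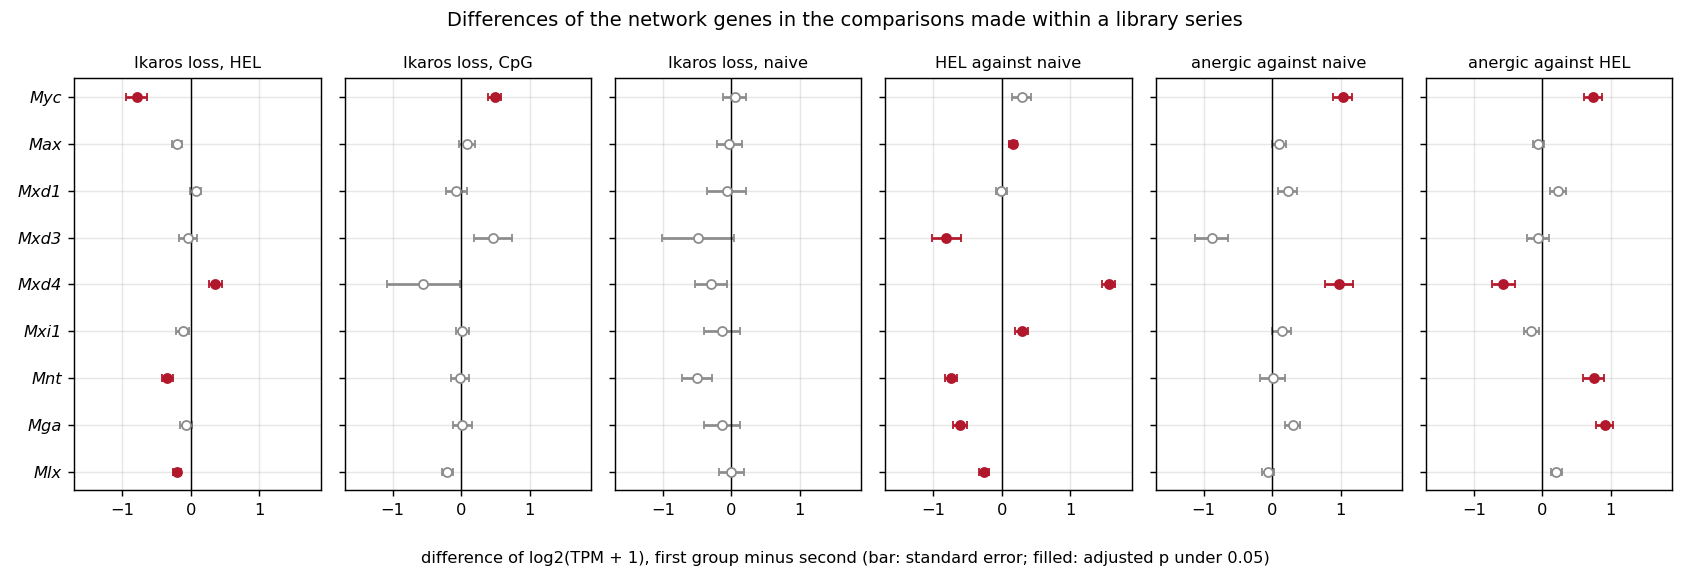
Differences in log2(TPM + 1) for the 9 tested members in 6 comparisons made within a library series (horizontal axes; bars are standard errors, filled points have an adjusted p under 0.05). Myc lies at -0.79 for Ikaros loss with HEL and at 0.49 for Ikaros loss with CpG, and Mxd4 lies at 1.56 for HEL against naive.

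The next comparison asked what 1 day of HEL in the mouse does to the network in cells with Ikaros. The repressors were reshuffled while Myc did not pass: Mxd4 rose, and Mnt, Mga and Mxd3 fell. Of 9 members tested 3 were higher and 4 were lower, where 48% of 10448 genes were called (9.92% higher, 38.1% lower). All genes shifted by a median of -0.16, and with median-ratio scaling, the split was 4 higher and 3 lower among members and 2091 higher and 2108 lower over all genes. All 3 naive libraries are male while the HEL controls are 3 female and 2 male, and with male libraries alone 3 members were called: Mxd4, Mnt and Mga. The 4 dendritic cell markers summed to 4.11 to 7.26 TPM after HEL and 10.5 to 21.9 TPM in naive cells. Flt3 made up most of this fall, with means of 4.26 and 14.5 TPM (-1.51 ± 0.25), while Zbtb46 did not fall (0.03 ± 0.15). The part of these markers was not tested.

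Mxd4 was at 96.1, 94.5 and 111 TPM in the naive libraries and at 258 to 321 TPM after HEL (median 313). The lowest HEL library was more than 2-fold above the highest naive library, and the log2 difference was 1.56 ± 0.09 (adjusted p = 2.57e-06). It was 12th of all genes by p, and ran from 1.5 to 1.74 over 14 settings. Mnt was at 65.2, 73.5 and 76.8 TPM and fell to 37.1 to 48.9 TPM, without overlap (-0.74 ± 0.09, adjusted p = 1.37e-04). Mga was at 11.9, 11.99 and 12.8 TPM and fell to 6.31 to 8.47 TPM, without overlap (-0.61 ± 0.10, adjusted p = 7.46e-04). Relative to the median of all genes the 3 differences were 1.73, -0.57 and -0.45, each past the threshold.

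Mxd3 was at 3.71, 3.71 and 1.61 TPM in naive cells and 0.716 to 1.505 TPM after HEL (-0.81 ± 0.21, adjusted p = 0.01002). Mki67 was at 2.77, 1.68 and 0.906 TPM in the same 3 naive libraries. The library with the lowest Mxd3 thus also had the lowest Mki67, while the other 2 differed in Mki67 but not in Mxd3. The call of Mxd3 was lost without the naive no-Cre replicate 2 (-0.66, adjusted p = 0.0513). Mxi1, the Max-interacting repressor also named Mxd2, rose from 4.75 to 5.80 TPM to 6.05 to 6.90 TPM (0.29 ± 0.09, adjusted p = 0.0191). That call was lost without either naive no-Cre library (0.25 and 0.26). Max (0.16 ± 0.06, adjusted p = 0.0473) lost its call without any 1 of HEL control replicates 1 to 4, naive no-Cre replicate 2 or the naive Cre library. Mlx (-0.26 ± 0.07, adjusted p = 0.0122) lost it with median-ratio scaling (-0.09, adjusted p = 0.355) and without naive no-Cre replicate 2 (-0.23, adjusted p = 0.0599).

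Myc after HEL depended on the scaling. It was at 39.96, 33.4 and 48.2 TPM in naive cells and at 42.1 to 62.5 TPM after HEL, with overlap. The difference was 0.29 ± 0.14 (adjusted p = 0.126) on TPM, 0.46 ± 0.13 (adjusted p = 0.0207) with median-ratio scaling and 0.47 (adjusted p = 0.0151) with voom on recovered reads.

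Against the same 3 naive libraries, HEL-exposed cells without Ikaros had 1 member higher and 5 lower, where 64.2% of 10538 genes were called (15.4% higher, 48.8% lower). Median-ratio scaling removed a median shift of -0.23 and gave 3 members higher and 4 lower, beside 2940 genes higher and 2863 lower. These libraries share their naive controls with the comparison above, and genotype and HEL differ together. Mxd4 was 1.91 ± 0.12 higher (adjusted p = 6.13e-07), Mnt 1.08 ± 0.09 lower and Mga 0.68 ± 0.09 lower in log2(TPM + 1), each without overlap. Myc was at 21.9 to 39.1 TPM against 33.4 to 48.2 TPM. Its difference of -0.51 ± 0.17 passed (adjusted p = 0.0244), but not with median-ratio scaling (-0.27, adjusted p = 0.182), with male libraries alone (-0.20, adjusted p = 0.322), with voom (-0.28, adjusted p = 0.137), with no filter on low TPM (adjusted p = 0.0672), or without HEL Cre replicate 1 or 2, naive no-Cre replicate 1 or the naive Cre library (-0.51 to -0.38).

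Anergic cells, which met HEL for life, differed from naive cells in 2 members. Both Myc and Mxd4 were higher, and no other member was called. Of 9 members 2 were higher and 0 lower, where 7.37% of 10519 genes were called (4.48% higher, 2.89% lower; 407 higher and 446 lower with median-ratio scaling, with the same counts of members). Myc was at 77.8, 88.5 and 82.2 TPM in anergic cells and at 39.96, 33.4 and 48.2 TPM in naive cells. The groups did not overlap, and the means were 82.8 ± 5.40 and 40.5 ± 7.44 TPM (SD, n = 3 each). The log2 difference was 1.03 ± 0.14 (adjusted p = 0.00393) and ran from 0.90 to 1.16 over 11 settings, past the threshold in each.

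Mxd4 was at 140, 226 and 251 TPM in anergic cells against 96.1, 94.5 and 111 TPM in naive cells, without overlap (0.98 ± 0.20, adjusted p = 0.0242). The lowest anergic library is the Ikzf1(fl/fl) one and the highest is the Cre one. This call was fragile: it was lost without any 1 of the 3 naive libraries (adjusted p = 0.0748 to 0.0924), with no filter on low TPM (adjusted p = 0.0709) and with only the libraries without Cre (0.89, adjusted p = 0.0895). Mxd3 was at 1.19, 1.09 and 1.05 TPM against 3.71, 3.71 and 1.61 TPM and just missed the threshold (-0.88 ± 0.24, adjusted p = 0.0704). Without the naive Cre library it passed (-1.16, adjusted p = 0.0171). Mga was at 17.4, 13.8 and 14.8 TPM, above all 3 naive libraries (11.9 to 12.8 TPM), but did not pass (0.30 ± 0.11, adjusted p = 0.168). Dendritic cell markers summed to 5.94 to 6.96 TPM in anergic and 10.5 to 21.9 TPM in naive cells. Flt3 made up most of this difference, with means of 4.08 and 14.5 TPM (-1.53 ± 0.27), while Zbtb46 was not lower (0.33 ± 0.16). The part of these markers was not tested.

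Life-long and 1-day exposure to HEL were also set against each other in cells with Ikaros. Anergic cells had more Myc, Mnt and Mga and less Mxd4 than HEL-exposed controls, 3 members higher and 1 lower, where 42.2% of 10491 genes were called (36.8% higher, 5.39% lower). All genes shifted by a median of 0.23, and with median-ratio scaling 3 members were higher and 3 lower, beside 1161 genes higher and 1338 lower. Myc was at 77.8 to 88.5 TPM against 42.1 to 62.5 TPM, without overlap. Its difference was 0.74 ± 0.13 (adjusted p = 0.0023), and 0.50 ± 0.12 relative to the median of all genes (adjusted p = 0.0139).

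Mga was at 13.8 to 17.4 TPM against 6.31 to 8.47 TPM (0.91 ± 0.12, adjusted p = 5.55e-04), and Mnt at 57.3 to 95.7 TPM against 37.1 to 48.9 TPM (0.75 ± 0.15, adjusted p = 0.00391). Neither overlapped. Mnt missed the threshold with male libraries alone at the same size (0.75, adjusted p = 0.0581). Mxd4 was 0.57 ± 0.17 lower (adjusted p = 0.0197), with no overlap, but not past the threshold without anergic replicate 1, the library with 140 TPM (-0.32, adjusted p = 0.0569), with no filter on low TPM (adjusted p = 0.051) or with male libraries alone (-0.52, adjusted p = 0.164). Mlx (0.20 ± 0.08) did not pass, and its sign turned with median-ratio scaling and with voom (-0.04 each). Markers of other cells moved here too. The 4 plasma cell markers summed to 107 to 146 TPM in anergic and 72.2 to 94.3 TPM in HEL-exposed cells (2 of 3 tested higher), and the 3 follicular markers to 1775 to 2066 TPM and 1384 to 1739 TPM (2 of 3 higher). Of 3 marginal zone markers 1 was higher (S1pr3, 1.45 ± 0.16), and of 3 tested myeloid markers 1 was lower (Itgam, -1.16 ± 0.18). Their part in the differences of the members was not tested.

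CpG-stimulated cells were also compared with naive cells of the same genotype. Myc, Max and Mxd3 rose and Mxd4 and Mxd1 fell in both genotypes. On TPM, the fall of Mnt passed only with 1 intact allele and the rise of Mga only without Ikaros. With median-ratio scaling Mnt was lower in both genotypes (-1.32 with 1 intact allele and -0.86 without Ikaros), and Mga passed in neither. The naive libraries without Ikaros were all of series 36, while those with 1 intact allele included a library of series 57. Whether the genotypes differ in these changes was not tested. Stimulus, culture and library series differ together in these comparisons and cannot be told apart. With 1 intact allele, 3 members were higher and 3 lower, where 64.1% of 10527 genes were called (43% higher, 21% lower). Without Ikaros 4 were higher and 2 lower, where 76.1% of 10808 genes were called (56.3% higher, 19.8% lower). The median of all genes was 0.30 and 0.56, and with median-ratio scaling the splits were 3 members higher and 5 lower in both, beside 3498 and 4022 genes higher and 3434 and 3938 lower.

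With 1 intact allele Myc was at 185 to 233 TPM against 46.9, 46.1 and 48.2 TPM (2.10 ± 0.11, adjusted p = 1.02e-06; 1.76 ± 0.13 relative to the median of all genes). Max was at 203 to 284 TPM against 105.5 to 139.5 TPM (1.02 ± 0.15, adjusted p = 3.20e-04; 0.67 relative to the median). Neither overlapped. Among the repressors, Mxd1 fell from 5.10 to 9.03 TPM to 2.33 to 3.73 TPM (-1.05 ± 0.23, adjusted p = 0.00278). Mxd4 fell from 94.1 to 146 TPM to 15.3 to 78.0 TPM (-1.96 ± 0.46, adjusted p = 0.00471). Mnt fell from 41.9 to 76.8 TPM to 23.9 to 31.2 TPM (-0.99 ± 0.21, adjusted p = 0.00239). These 3 repressors did not overlap between the groups, and their falls were larger relative to the median of all genes (-1.33, -2.30 and -1.32).

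Mxd3 rose from 6.95, 1.08 and 1.61 TPM to 9.59 to 27.2 TPM (2.24 ± 0.49, adjusted p = 0.00304). The naive library with 6.95 TPM also had the highest proliferation sum of the unstimulated libraries (536 TPM). Mga (0.18 ± 0.36) did not pass, and its naive values were split by library series: the CpG libraries at 5.34 to 8.53 TPM lay above the naive libraries of series 36 and below the one of series 57.

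Without Ikaros the same comparison, with other libraries throughout, gave Myc at 256 to 326 TPM against 47.6 and 48.7 TPM (2.56 ± 0.11, adjusted p = 5.00e-07; 1.95 relative to the median of all genes). Max differed by 1.21 ± 0.12, Mxd3 by 3.0 ± 0.16, Mxd1 by -0.92 ± 0.20 and Mxd4 by -2.24 ± 0.47, each past the threshold under all 10 other settings. Mga rose from 4.34 and 2.85 TPM to 6.04 to 8.30 TPM (0.83 ± 0.18, adjusted p = 0.00309), but not past the threshold with median-ratio scaling (0.32, adjusted p = 0.0821). Mnt (-0.26 ± 0.19) and Mlx (-0.25 ± 0.12) did not pass on TPM, but both did with median-ratio scaling (-0.86 each). The naive libraries here were all of series 36, in which Mga and Mnt ran low in naive Cre fl/+ cells.

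The balance of the network can be shown as the share of each partner in the summed TPM of the 8 genes whose products pair with Max. These shares are descriptions of transcript levels, built from the values above, and carry no test. In the 3 naive control libraries of series 57, Myc made up 16.7% ± 1.94 (SD, n = 3), Mxd4 41.6% ± 0.456 and Mnt 29.8% ± 1.903. After HEL in the controls Myc was at 11.99% ± 1.83 and Mxd4 at 71.9% ± 2.41 (n = 5). Without Ikaros Myc was at 6.24% ± 2.12 and Mxd4 at 81.5% ± 3.83 (n = 5). In both HEL groups, with and without Ikaros, 1 repressor thus supplied most of the partner transcripts.

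Anergic cells stood between the naive controls of series 57 and HEL-exposed cells in Mxd4 share, at 51.4% ± 8.09, with Myc at 21.3% ± 2.58 (n = 3). The naive libraries of series 36 had Mxd4 shares near the anergic one, with means of 51.3% in fl/+ and 49.9% in fl/- cells. After CpG the order turned over, with Myc at 69.1% ± 7.34 and Mxd4 at 11.5% ± 8.82 with 1 intact allele, and at 77.6% ± 3.57 and 5.70% ± 2.75 without Ikaros (n = 4 each). Max itself was at 0.526 to 0.647 times the summed partner TPM in the naive controls of series 57, at 0.265 to 0.346 after HEL without Ikaros and at 0.605 to 1.05 after CpG.

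**Figure D3:**
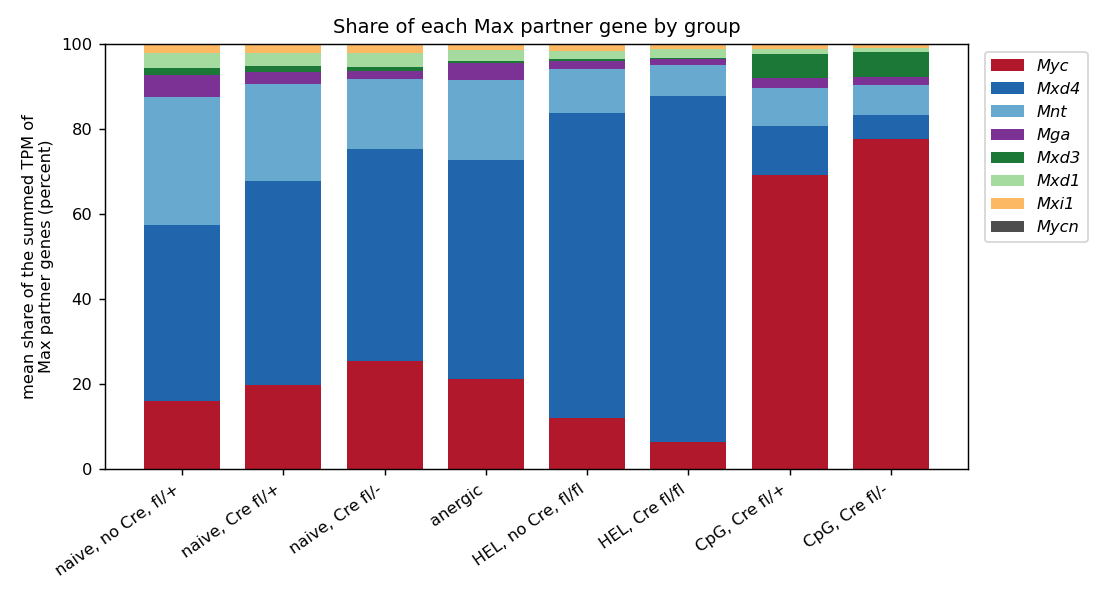
Mean share of each of 8 Max partner genes in their summed TPM (vertical axis, percent) in the 8 groups. Mxd4 grows from 41.4% in naive cells without Cre to 81.5% after HEL without Ikaros, and Myc is at 69.1% and 77.6% in the CpG groups.

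Expressed as a log2 ratio of Myc plus Mycn over the 5 summed antagonists (Mxd1, Mxd3, Mxd4, Mxi1 and Mnt), naive controls of series 57 were at -2.23 ± 0.21 and anergic cells at -1.82 ± 0.24 (SD, n = 3 each). HEL controls were at -2.86 ± 0.25 and HEL-exposed cells without Ikaros at -3.95 ± 0.51 (n = 5 each). The CpG groups were at 1.31 ± 0.52 and 1.93 ± 0.31 (n = 4 each), with Myc above its antagonists in all 8 libraries. The anergic range (-1.97 to -1.54) lay just above that of the series 57 naive controls (-2.47 to -2.08), and the 2 HEL groups did not overlap (-3.17 to -2.60 and -4.46 to -3.22). Summed antagonists were at 318 to 379 TPM in HEL controls and 364 to 501 TPM without Ikaros, and at 61.2 to 126 TPM after CpG.

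**Figure D4:**
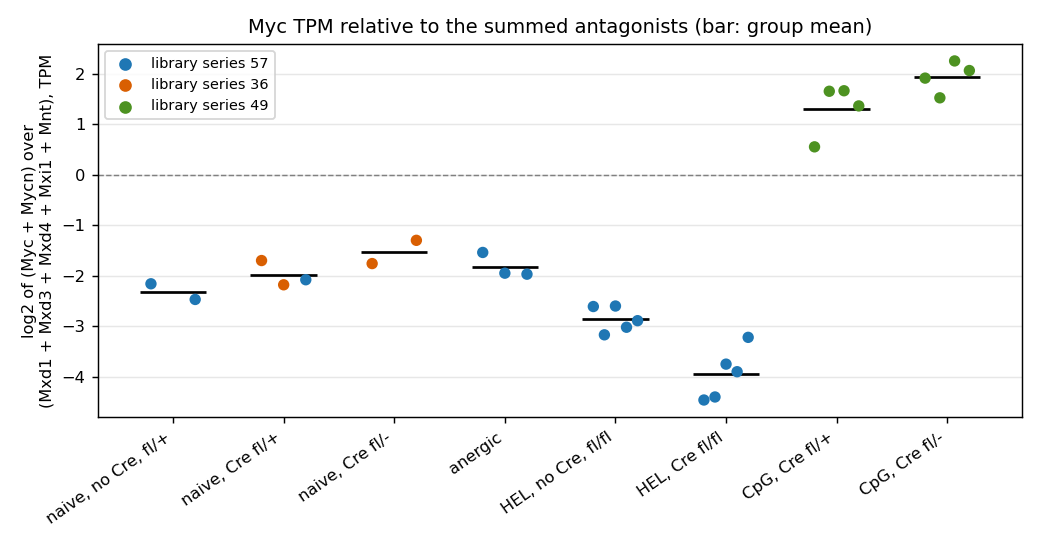
Log2 ratio of Myc plus Mycn over the summed TPM of 5 antagonists (vertical axis) in each library, by group, coloured by library series, with a bar at the group mean and a dashed line at equal levels. The 5 HEL libraries without Ikaros lie between -4.46 and -3.22, and the 8 CpG libraries lie between 0.55 and 2.25.

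The other genes of the pathway were taken from lists. The largest holds 37 textbook Myc targets in ribosome biogenesis, polyamine and nucleotide synthesis, folate metabolism and cell cycle entry. The lists were chosen with earlier results of these data known, so their counts beside all genes are descriptions and not an independent test. After HEL without Ikaros 24 of the 37 fell and 3 rose, leaving 10 short of the threshold, with a median log2 difference of -0.34 against -0.08 over all genes (12.9% of genes were higher and 24.1% lower). With median-ratio scaling 22 were lower and 3 higher. Srm, the spermidine synthase, went from 48.4 to 21.3 TPM (-1.16 ± 0.12, adjusted p = 8.97e-06). Rrs1 and Nop58, both needed to make ribosomes, fell by 0.62 ± 0.06 and 0.68 ± 0.08. The 3 that rose were the mitochondrial folate enzyme Mthfd2 (0.76 ± 0.11), the purine enzyme Paics (0.30 ± 0.07) and the nucleolar protein Npm1 (0.25 ± 0.07).

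After CpG without Ikaros 3 of the 37 were higher and 0 lower, with a median of 0.14 against 0.02 over all genes (9.14% of genes were higher and 5.80% lower). The 3 were Pa2g4 (0.44 ± 0.07), Rcc1 (0.39 ± 0.06) and Ran (0.39 ± 0.07), genes of growth and nuclear transport. Without fl/+ replicate 2 the count was 6. In the test of CpG against HEL effects the effect was higher for 20 of 37 and lower for 0, against 15.2% and 7.19% of all genes. In naive cells 0 of 37 were called by limma (1 at an unadjusted p under 0.05, 0 with voom) and the median was -0.08. Anergic against naive cells had 10 higher and 0 lower (median 0.32 against 0.07, 4.48% of genes higher), including Ccnd2, the cyclin of resting B cells entering the cycle (1.48 ± 0.20), Shmt1 (1.23 ± 0.17) and the amino acid transporter Slc7a5 (0.54 ± 0.10). That count was 5 with median-ratio scaling, 3 without anergic replicate 1, 15 without anergic replicate 2 and 2 without any 1 of the naive libraries.

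For 1 day of HEL in cells with Ikaros, 7 targets were higher and 15 lower on TPM (median -0.15 against -0.16 over all genes, of which 9.92% were higher and 38.1% lower), and 11 were higher and 7 lower with median-ratio scaling. Without naive no-Cre replicate 1 the number lower was 9. Npm1 (0.95 ± 0.07) and the chaperonin Hspe1 (0.96 ± 0.07) rose, and Rrs1 (-0.74 ± 0.06) and Nolc1 (-0.58 ± 0.06) fell. The list therefore did not move 1 way. Anergic against HEL-exposed cells had 27 higher and 1 lower (14 and 3 with median-ratio scaling), with a median of 0.51 against 0.23 over all genes, of which 36.8% were higher and 5.39% lower. After CpG all 37 were higher than in naive cells in both genotypes, where 43% and 56.3% of all genes were higher. The medians were 2.51 and 2.81 against 0.30 and 0.56 over all genes. Stimulus, culture and library series differ together here and cannot be told apart.

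**Figure D5:**
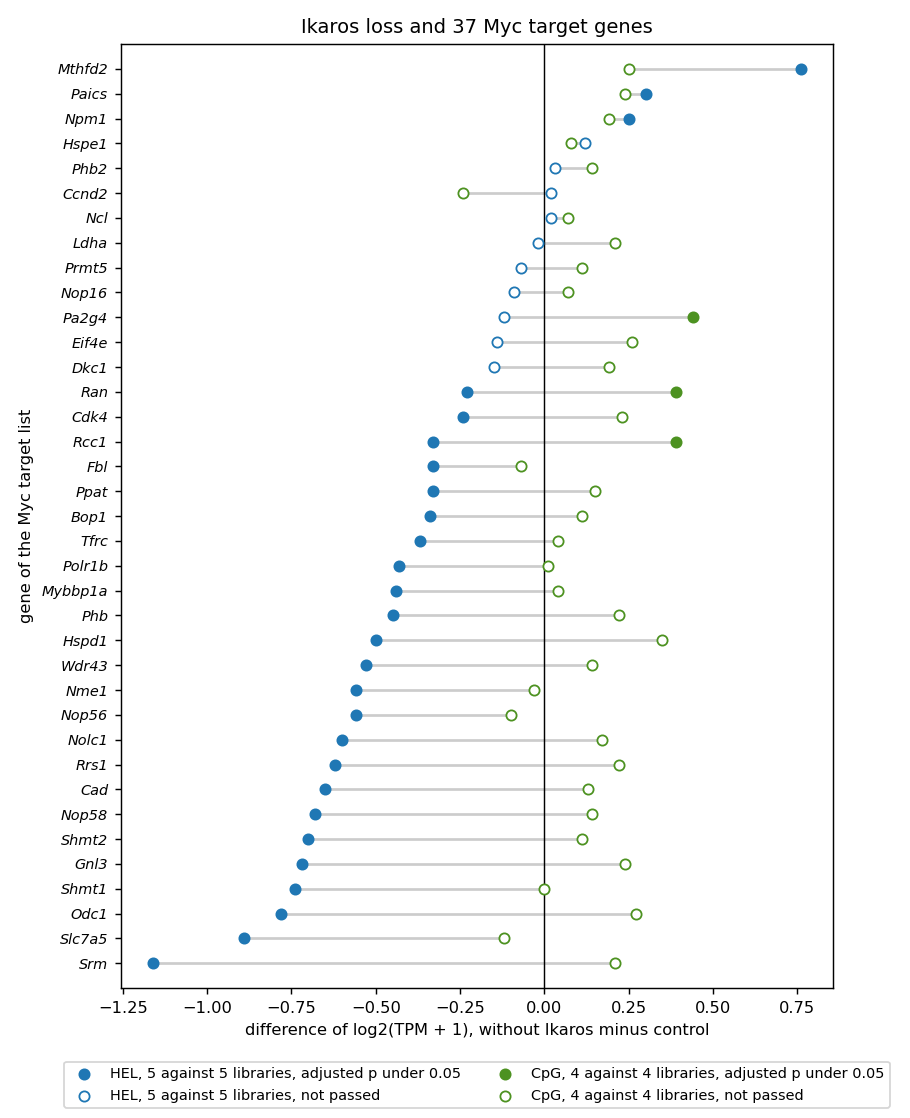
Difference in log2(TPM + 1) for Ikaros loss (horizontal axis) of 37 Myc target genes, ordered by their value after HEL (blue, 5 against 5 libraries) and with their value after CpG (green, 4 against 4 libraries); filled points have an adjusted p under 0.05. After HEL 24 genes lie to the left of 0 and past the threshold and 3 to the right, and after CpG 3 lie to the right.

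The cofactors of Myc and of its antagonists are read against all genes, of which 12.9% were higher and 24.1% lower without Ikaros after HEL, and 9.14% higher and 5.80% lower after CpG. Of 11 Myc coactivators 5 were lower and 0 higher after HEL without Ikaros, among them the helicases Ruvbl1 (-0.38 ± 0.06) and Ruvbl2 (-0.23 ± 0.05) and the chromatin adaptor Wdr5 (-0.31 ± 0.06). After CpG without Ikaros 1 was higher, Ruvbl2 (0.25 ± 0.06). Of the 10 corepressor genes that serve Mxd proteins and Mnt, 1 was lower with HEL (Rbbp7, -0.32 ± 0.07), and with CpG 2 were higher and 1 lower (Sap30 0.51 ± 0.12, Rbbp7 0.30 ± 0.08 and Sin3b -0.30 ± 0.06). Of 10 genes of PRC1.6, the complex of Mga, 4 were lower with HEL, including Pcgf6 (-0.38 ± 0.10), Yaf2 (-0.23 ± 0.06) and L3mbtl2 (-0.24 ± 0.07), and 1 was higher with CpG (Tfdp2, 0.40 ± 0.10). These small counts moved with the settings. With median-ratio scaling, coactivators after HEL were 1 higher and 3 lower and PRC1.6 genes 2 lower, and no coactivator was called after CpG. With a library left out, 3 to 6 coactivators and 3 to 5 PRC1.6 genes were lower after HEL, and the single CpG calls of both lists were lost in some fits.

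In the response of cells with Ikaros to HEL, 9 of 11 coactivators, 5 of 10 corepressors and 3 of 10 PRC1.6 genes were lower and 0 of each higher, where 38.1% of all genes were lower. With median-ratio scaling the numbers lower were 4, 2 and 3, and 1 corepressor was higher. Ring1, the Polycomb ubiquitin ligase, fell by 0.78 ± 0.07, beside the fall of Mga. Of 10 genes for the turnover of Myc protein 1 was higher and 5 were lower, among them Usp36 (-0.80 ± 0.07) and Fbxw7, the ubiquitin ligase that marks Myc for destruction (-0.48 ± 0.08). In anergic against naive cells 1 of these 10 was called, Usp28, which removes ubiquitin from Myc, at 17.5 against 5.76 TPM (1.44 ± 0.14, adjusted p = 9.42e-04). None of the coactivators, corepressors or PRC1.6 genes was called there by limma (1, 2 and 3 at an unadjusted p under 0.05).

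Of the 2 Mondo genes, Mlxipl (ChREBP) was at 0.101 TPM or less in every library. Mlxip (MondoA) was at 17.6 to 66.6 TPM, and it fell after CpG without Ikaros (-0.34 ± 0.07, adjusted p = 0.0149). Txnip, the thioredoxin-interacting protein that restrains glucose uptake, was at 294 to 559 TPM in naive cells and 14.7 to 33.3 TPM after CpG. It was 3.84 ± 0.17 lower after CpG with 1 intact allele and 4.00 ± 0.15 lower without Ikaros on the log2 scale. Within the CpG groups it was lower without Ikaros (17.7 ± 3.08 against 29.1 ± 3.19 TPM, SD, n = 4 each; -0.70 ± 0.13, adjusted p = 0.00818). Arrdc4 was low, with means of 0.849 TPM in HEL controls and 2.16 TPM without Ikaros (0.75 ± 0.16, adjusted p = 0.0023).

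Of 6 genes that Myc is known to repress, Ndrg1 stood out. It was at a mean of 0.899 TPM in naive and 40.8 TPM in anergic cells (4.41 ± 0.24, adjusted p = 7.63e-05), and it was also higher without Ikaros after HEL (1.99 ± 0.19) and after CpG (1.13 ± 0.20). Myc was higher as well in the anergic and CpG comparisons, and lower only in the HEL one. Cdkn1b, the inhibitor p27, fell by 0.35 ± 0.08 without Ikaros after HEL, and Gadd45a fell without Ikaros after both HEL and CpG (-0.47 ± 0.12 and -0.73 ± 0.17). After CpG with 1 intact allele, where Myc was also higher than in naive cells, Cdkn1a, Cdkn2b, Cdkn2c and Ndrg1 were higher. Cdkn1b and Gadd45a were lower there, where 43% of all genes were higher and 21% lower. The list therefore did not run against Myc throughout. Of the related network genes, Tfap4, a factor that sustains the Myc program in lymphocytes, fell without Ikaros after HEL (-0.51 ± 0.12), fell with HEL in cells with Ikaros (-0.93 ± 0.10) and was higher in anergic than in HEL-exposed cells (1.12 ± 0.11).

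The genes whose levels ran most like those of a member were found over the 16 libraries of series 57 among 8327 genes, as Pearson correlations of log2(TPM + 1). These libraries share the 4 states of naive, anergic and HEL-exposed cells with and without Ikaros, so the values describe shared differences between groups. Myc was closest to Gcnt1 (0.943), the early response factor Egr1 (0.941) and Hivep2 (0.933). Mxd4 was closest to Pold4 (0.946), Idh3b (0.941) and A530032D15Rik (0.941). Mnt followed Fbxl14 (0.993), Zfp553 (0.990) and the serum response factor Srf (0.988), and Mga followed Zdhhc17 (0.980), Morc2a (0.979) and Mdn1 (0.973). Mlx was closest to Med11 (0.967), Pcgf6 (0.966) and Adprhl2 (0.964).

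Max had no close companion (Bmi1, 0.780), and Mxd1 (Ube4b, 0.882) and Mxi1 (Cgrrf1, 0.860) had less close ones than the members above. Between members, Mnt ran with Mga (0.88) and Mlx (0.84) and against Mxd4 (-0.81), while Myc ran with Mnt at 0.68 and with Max at 0.49.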

How the data were processed

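RNA was prepared with a column kit and oligo-dT beads, per the labels. The authors deposited TPM values, 1 file per library with 24732 genes. The submitters' processing notes name build mm9 and, for the series as a whole, featureCounts 1.5.0, TopHat 1.4.1, deepTools 3.0.1, Bowtie and SAMtools 1.4; what each tool did, the annotation and the strandedness are not given in the sources used here. Left out were the 12 samples of chromatin assays. Of 24732 rows 3539 are marked as overlapping another gene, so their reads are uncertain.

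Whole reads were recovered from the TPM steps for 18843 of 18843 genes above 0 (tolerance 0.01), and in all 40 pairs replicates differed by more than sampling noise (chi-square per degree of freedom 6.34 to 79.7). Values were taken to log2(TPM + 1) and each comparison was tested, two-sided, by limma 3.58.1 (R 4.3.3; trended variance). Benjamini-Hochberg adjustment ran over all genes that passed a filter: 1 TPM, reached in a number of libraries no smaller than the smaller group (4 for CpG against HEL). A pseudocount of 1 understates changes of low genes. Values after ± are standard errors for log2 differences and SD for TPM, shares and ratios. Beside it were run a pseudocount of 0.1, no filter, median-ratio scaling of the TPM values, limma's voom on the recovered reads, terms for sex or block, and each library left out. The test was checked on simulated counts.

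The members and the gene lists were chosen with earlier results of these data known. Named were all members, the 3 genes most like each member, and in each list up to 3 genes per direction with the smallest adjusted p, from which the text takes examples. Sequences are from RefSeq, build GRCm38.p6.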

Additional observations from a re-analysis of the deposited data

Results flagged for a closer look

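In 40 groups of 4 or 5 libraries of 1 member each, chance alone flags about 1 in 20, and 3 were flagged because a single library lay far from the others. Mlx was at 48.9 TPM in HEL control replicate 5, against 40.5 to 42.9 TPM in the other 4. Without that library Mlx was higher in anergic than in HEL-exposed cells (0.25, adjusted p = 0.0313), where it had not passed (0.20, adjusted p = 0.0693). Mxi1 was at 3.07 TPM in CpG fl/+ replicate 2, against 3.86 to 3.91 TPM in the other 3. Mycn was at 0.0537 TPM in CpG fl/+ replicate 3, which is 1 read, and at 0 in the other 3.

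Myc was the member whose difference without Ikaros was not the same in the HEL and CpG pairs. The pairs also differ in Cre, in the alleles of the controls, in culture and in library series, so the part of the stimulus cannot be told apart. The effect with CpG minus that with HEL was 1.29 on the log2 scale (limma interaction contrast, adjusted p = 3.05e-04), from -0.79 with HEL and 0.49 with CpG. Every HEL library without Ikaros lay below every HEL control, and every CpG library without Ikaros lay above every CpG control.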

How the results depend on the processing

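Of 723 recomputed values of members, 668 kept their direction and side of the threshold, 37 lost a call, 14 gained 1 and 4 changed sign, all 4 among members that had not passed. No call reversed. The sign changes were naive loss of Ikaros for Mxd3 (-1.46 to 0.48 with a library left out, 0.48 without fl/+ replicate 1) and Mxd4 (-0.61 to 0.02, 0.02 without fl/+ replicate 2), and Mlx in anergic against HEL-exposed cells (-0.04 with median-ratio scaling and -0.04 with voom). The number of members called moved by over 1.5 times in 4 comparisons. For HEL against naive it was 3 with male libraries alone, an alternative added after seeing the data, and 3 to 7 with a library left out, lowest without naive no-Cre replicate 2, where Max, Mxd3, Mxi1 and Mlx were lost. For anergic against naive it was 1 with no filter and 1 to 2 with a library left out, 1 without either naive no-Cre library, where Mxd4 was lost. For anergic against HEL-exposed cells it was 2 with male libraries alone, where 908 genes were called in place of 4425. For CpG against HEL effects it was 1 to 2 with a library left out, 2 without CpG fl/+ replicate 4. In other comparisons it stayed within 1.5 times of its value. Over all genes, anergic against HEL-exposed cells had 2499 calls with median-ratio scaling, 2584 with voom and 2800 without anergic replicate 1; anergic against naive had 323 to 394 calls without anergic replicate 1 or any naive library in place of 775; CpG loss had 909 without fl/- replicate 3 in place of 1551; naive loss had 240 with a term for sex, 58 with voom, 17 with median-ratio scaling and 0 under other settings in place of 2. The causes were not tested. Male-only fits leave 2 HEL libraries, and leaving 1 of 2 naive libraries out assumes that the lone library varies like the others. No paired analysis was possible because the labels carry no replicate numbers. Depth limits Mycn, which had at most 5 reads, and Mxd3 in naive, anergic and HEL-exposed cells, which had 9 to 76 reads.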
